A study of Mus musculus with 2 samples.

Results

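The embryonic-globin barcodes were the cell barcodes of a single-cell RNA-seq experiment on mouse ovarian tumors in which the embryonic globin genes Hbb-y, Hba-x and Hbb-bh1 together held at least 2% of the unique molecular identifiers (UMIs, each standing for 1 captured transcript molecule). They had also to pass the limits of at least 200 genes, at least 500 UMIs and at most 10% mitochondrial UMIs, with no upper limit on UMIs. In all, 181 of 4909 passing barcodes met the rule, 93 of 1693 in the WT library (5.49%, exact binomial 95% interval 4.46 to 6.69) and 88 of 3216 in the TSK library (2.74%, 2.20 to 3.36). They stood for only 96 different barcode sequences, because most occurred in both libraries. The WT library was made from pooled subcutaneous SO tumors of wild-type mice, and the TSK library from the same tumors in TSK mice, which carry a heterozygous duplication within Fbn1, the fibrillin-1 gene. All mice were female C57BL/6 animals aged 6 to 8 weeks, each injected with 1000000 SO cells, a mouse ovarian cancer line. Both preparations included a red cell lysis step and removal of dead cells. Each genotype had 1 library, so there was no replicate, no test between libraries was made, and every interval below covers counting error only.

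The working name of the group was erythroid, and the data went against it in part. All 3 embryonic globins and the adult-type α-globin Hba-a1 were abundant, but Gata1, the leading erythroid transcription factor, had 0 UMIs among 190833 in these barcodes, and so had Epor, the erythropoietin receptor, and Gfi1b, Epb42 and Rhag. Over the 178713 UMIs outside the globin genes, a count of 0 allows a level of up to 16.8 UMIs per 1000000. Outside the globin loci the largest ratios over other barcodes were those of Barx1, Mdk and Nnat, described below. The barcodes are therefore called by their globins and given no cell type.

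In the mouse, the first red cells form in the yolk sac and carry hemoglobins built from the α-like chain ζ (Hba-x) and the β-like chains εy (Hbb-y) and βh1 (Hbb-bh1). Later red cells, made in the fetal liver and then in the bone marrow, use the adult-type chains of Hba-a1, Hba-a2, Hbb-bs and Hbb-bt instead. In adult mice the embryonic chains are normally not made. The β-like genes lie in a row on chromosome 7 and the α-like genes on chromosome 11, each cluster with its embryonic genes at the end that lies first in the direction of transcription.

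The coding part of the last exon is shown for each globin gene, because reads of a 3′ library fall near this end and the assignment of a UMI to an embryonic or an adult-type gene rests on such differences. Sequences are on the coding strand, from the GRCm38 genome with GENCODE M21 models. Capitals mark the bases that differ from Hbb-bs in the β-like genes.
Hbb-y: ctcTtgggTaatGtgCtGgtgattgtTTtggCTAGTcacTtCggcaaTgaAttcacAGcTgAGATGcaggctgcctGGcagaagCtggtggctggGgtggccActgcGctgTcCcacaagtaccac
Hbb-bh1: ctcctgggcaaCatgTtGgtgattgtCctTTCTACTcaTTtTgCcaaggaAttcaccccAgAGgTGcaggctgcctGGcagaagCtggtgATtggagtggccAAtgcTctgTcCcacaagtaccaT
Hbb-bs: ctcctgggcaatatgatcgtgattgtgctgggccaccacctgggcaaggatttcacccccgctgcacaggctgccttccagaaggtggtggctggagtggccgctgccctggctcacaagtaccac
Hbb-bt: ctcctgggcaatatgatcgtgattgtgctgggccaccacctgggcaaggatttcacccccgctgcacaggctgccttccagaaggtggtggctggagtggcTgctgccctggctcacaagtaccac
These stretches lie on the minus strand at chr7:103851877-103852002 for Hbb-y, chr7:103841755-103841880 for Hbb-bh1, chr7:103826668-103826793 for Hbb-bs and chr7:103812659-103812784 for Hbb-bt. Hbb-y and Hbb-bh1 each differed from Hbb-bs at 32 of the 126 bases, and over the whole coding sequence they were 75.5% and 75% identical to it. Hbb-bt differed at 1 base, so that its UMIs could be told from those of Hbb-bs mainly by the end of the transcript, where the last 300 bases were 86.1% identical.

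For the α-like genes, capitals mark the bases that differ from Hba-a1.
Hba-x: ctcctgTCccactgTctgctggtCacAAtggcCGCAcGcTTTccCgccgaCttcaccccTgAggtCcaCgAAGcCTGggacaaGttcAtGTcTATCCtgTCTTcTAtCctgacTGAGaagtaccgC
Hba-a1: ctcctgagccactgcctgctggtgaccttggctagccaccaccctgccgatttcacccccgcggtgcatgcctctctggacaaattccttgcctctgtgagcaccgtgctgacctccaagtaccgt
Hba-a2: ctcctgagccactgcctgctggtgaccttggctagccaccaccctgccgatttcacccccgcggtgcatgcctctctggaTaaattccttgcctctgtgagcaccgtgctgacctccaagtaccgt
They lie on the plus strand at chr11:32277880-32278005, chr11:32284263-32284388 and chr11:32297080-32297205. Hba-x differed from Hba-a1 at 47 of the 126 bases and was 66.1% identical over the coding sequence, whereas Hba-a2 differed at 1 base and was 89.6% identical over the last 300 bases of the transcript. The embryonic genes were thus distinct from the adult-type ones, while the split within the pairs Hba-a1 and Hba-a2, and Hbb-bs and Hbb-bt, is uncertain.

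Hbb-y was the most abundant globin, and the 241 bases before its annotated start are shown as the stretch from which it is transcribed (minus strand, chr7:103853217-103853457, same build).
Hbb-y: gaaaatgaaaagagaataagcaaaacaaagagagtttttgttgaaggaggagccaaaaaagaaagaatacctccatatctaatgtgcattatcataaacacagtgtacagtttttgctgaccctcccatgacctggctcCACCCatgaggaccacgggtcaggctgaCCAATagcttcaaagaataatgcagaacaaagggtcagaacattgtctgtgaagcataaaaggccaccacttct
Capitals mark the only match to CCAAT (its first base at -74 from the annotated start) and the only match to CACCC (at -102), motifs of many globin promoters. Both strands were searched, and neither overlapped the other. CCAAT in either strand occurred in 33.1% of 32851 RefSeq promoter windows of the mouse and CACCC in 50.8%. The letters AGATAA, present in 9.77% of the windows, were not in this stretch, and variants of them were not searched.

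The first feature of these barcodes was that nearly all were present in both libraries. Of the 93 in the WT library, 87 occurred in the TSK library too (93.5%, 86.5 to 97.6), and of the 88 in the TSK library all 88 occurred in the WT library (lower limit 95.9%). Among the other passing barcodes, 164 of 1600 in the WT library (10.3%, 8.81 to 11.8) and 167 of 3128 in the TSK library (5.34%, 4.58 to 6.19) were shared. T cells, taken as barcodes with a UMI of Cd3e, a subunit of the T cell receptor complex, were shared in 2 of 423 cases in WT and in 0 of 238 in TSK, which allows up to 1.54%. Barcodes with C1qa, a complement gene of macrophages, were shared in 12 of 241 and 2 of 516 cases. The 6 embryonic-globin barcodes found in the WT library alone held 518 to 662 UMIs each, near the limit of 500. How a barcode came to be in both files was not tested.

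The 90 shared barcodes that met the rule in at least 1 library gave 2 copies each, and the copies were alike. The TSK copy held a median of 0.843 times the UMIs of the WT copy (range 0.761 to 1.31, quartiles 0.811 and 0.873), and the WT copy was the deeper in 87 of the 90. For comparison, the whole TSK library was deeper than the WT library, with 48296765 against 21225411 UMIs. Once the totals were set equal, the gene counts of both copies varied about as much as 2 draws from 1 pool would: their variance over that of a binomial split had a median of 0.994 and a range of 0.934 to 1.18. The copies differed by about the sampling noise, and each pair was counted as 1 barcode where different barcodes were counted. At this depth the measure hardly set copies apart from different barcodes, since a WT copy against the TSK copies of the other 89 gave a median of 1.02 (range 0.821 to 1.29), and only 5 of 90 WT copies had the lowest ratio against their own TSK copy. The copies were paired by their barcode alone, and their totals were close. A median of 34.5% of the genes seen in a WT copy were seen in its TSK copy, at a median of 967 UMIs per embryonic-globin barcode in WT and 868 in TSK.

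**Figure D1:**
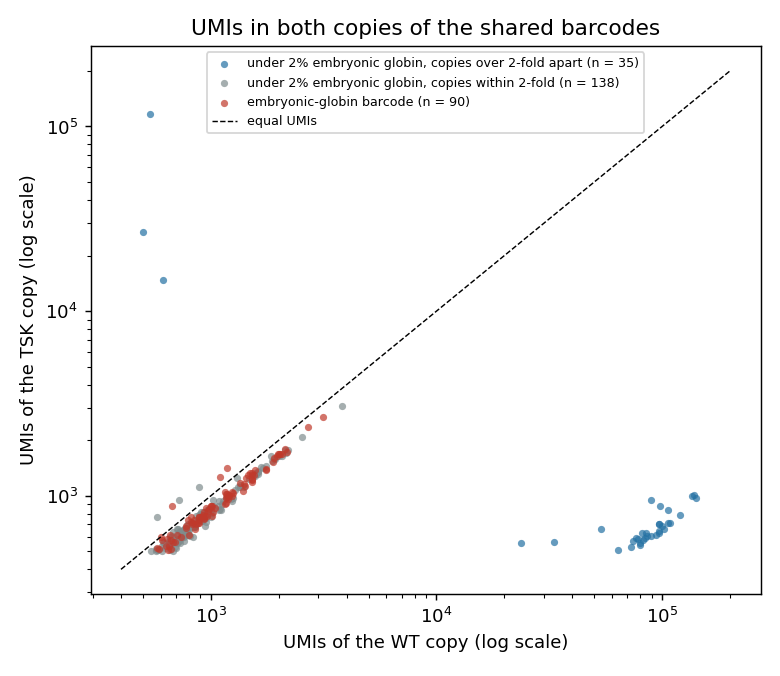
UMIs of the WT copy (x axis) and of the TSK copy (y axis) of the 263 barcodes in both libraries, both on log scales, with 1 point per barcode and a dashed line at equal UMIs. The 90 embryonic-globin barcodes (red) lie in a narrow band just under the line, in which 138 further barcodes with under 2% embryonic globin (grey) also lie, whereas 35 barcodes (blue) differ by more than 2-fold.

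The copies of 3 barcodes departed from the band, with 1.14, 1.21 and 1.31 times as many UMIs in the TSK copy. These 3 pairs also had the highest variance ratios of the 90, at 1.08, 1.18 and 1.18. Their embryonic globin share was lower in the deeper copy, at 2.45% in the WT copy and 2.22% in the TSK copy, 5.09% and 3.02%, and 6.96% and 4.30%. Over the 90 pairs the embryonic globin share of one copy, the value that chose them, followed that of the other, with Pearson's r = 0.929 and Spearman's rho = 0.922, given as a description of barcodes that share libraries and depth. The median absolute difference was 0.739 percentage points. Of the 90, 85 met the rule in both libraries, 2 in WT only and 3 in TSK only, and the copies that missed it held 1.25% to 1.94%.

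**Figure D2:**
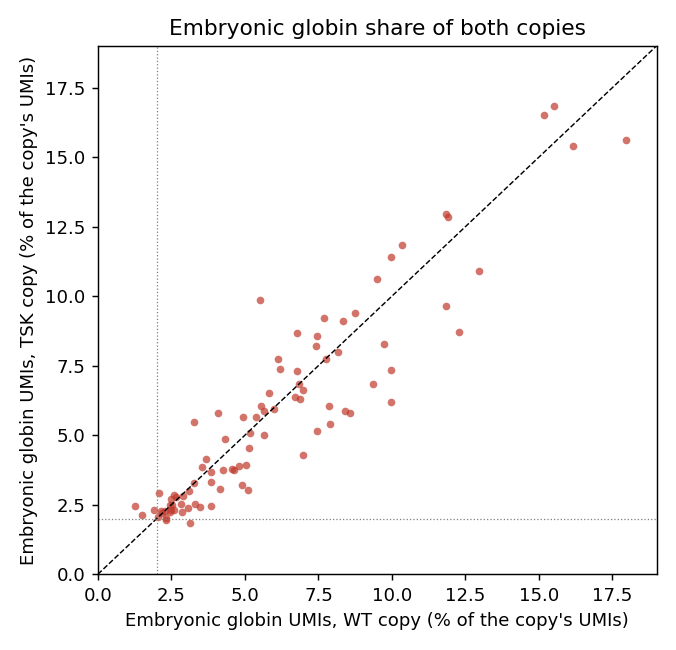
Embryonic globin UMIs as a percent of all UMIs in the WT copy (x axis) and in the TSK copy (y axis) of the 90 shared barcodes, 1 point each, with the limit of 2% dotted and equality dashed. The points follow the dashed line from about the limit up to 17.98% in the WT copy, and 5 of them lie below the limit in 1 of the copies.

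The barcodes were chosen by the summed share of Hbb-y, Hba-x and Hbb-bh1 in these same libraries, so this share and the globin levels below are a description. Embryonic globins held a median of 5.64% of the UMIs of a barcode in WT (range 2.06% to 17.98%) and 5.28% in TSK (2.01% to 16.8%). In WT, 39 barcodes lay from 2% to 5%, 43 from 5% to 10% and 11 from 10% to 20%, and in TSK 41, 37 and 10 did so. Just inside the limit stood barcodes at 2.06%, 2.08% and 2.13% in WT and at 2.01%, 2.07% and 2.13% in TSK, and just outside it barcodes at 1.95%, 1.94% and 1.92% and at 1.94%, 1.85% and 1.75%. Below that, 9 and 8 barcodes lay between 1% and 2%, 1 and 2 between 0.5% and 1%, 13 and 5 were above 0 but below 0.5%, and 1577 and 3113 had no embryonic globin UMI at all. The values thus ran on across the limit, but few barcodes stood near it on the lower side. With all globins counted the median was 6.62% in WT and 6.36% in TSK and the highest values were 20.6% and 19.05%, so that no barcode was made up mostly of globin.

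Hbb-y led the globins. It had 3704 UMIs in the WT library, 54.4% of the globin UMIs of these barcodes, and 2901 in TSK, 54.7%, with at least 9 UMIs in every barcode. Hba-x came next with 1899 and 1471 UMIs (27.9% and 27.7%) and was likewise seen in every barcode. Hbb-bh1 was the lowest of the embryonic genes with 287 and 208 UMIs (4.21% and 3.92%), and had a UMI in 84.9% and 79.5% of the barcodes. There were 12.9 UMIs of Hbb-y per UMI of Hbb-bh1 in WT (11.4 to 14.6) and 13.9 in TSK (12.1 to 16.1), and 1.95 and 1.97 UMIs of Hbb-y per UMI of Hba-x. UMIs count transcript ends, so these values are not divided by transcript length.

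The adult-type globins were present at a lower level in the same barcodes. Hba-a1 had 439 UMIs in WT and 344 in TSK and was seen in 94.6% and 93.2% of the barcodes. Hba-a2 had 250 and 187 UMIs, Hbb-bt 165 and 136, and Hbb-bs 66 and 58. Embryonic genes held 86.5% of the globin UMIs in WT (85.6 to 87.3) and 86.3% in TSK (85.3 to 87.2). The α-like and β-like sides differed: Hba-x held 73.4% and 73.5% of the α-like UMIs, whereas Hbb-y and Hbb-bh1 together held 94.5% and 94.1% of the β-like UMIs. In all, there were 0.613 α-like UMIs per β-like UMI in WT and 0.606 in TSK. Hbq1b had 3 and 2 UMIs, and Hbb-bh2 and Hbq1a had none.

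Embryonic globin was close to absent from the other barcodes of 1 library. The 6 embryonic-globin barcodes of the WT library alone, at 5.89% to 10.1%, were left out of this set. The rule thus fixes in part the low level given here. The set held the 4397 passing barcodes found in 1 library only and under 2% embryonic globin. Their median depths were 7688.5 UMIs in WT and 7302 in TSK. They held 5 embryonic globin UMIs in all (Hbb-y 4, Hba-x 1), among 62728667 UMIs. A UMI of an embryonic globin was seen in 3 of 1436 of them in WT (0.209%) and in 1 of 2961 in TSK (0.0338%). In the T cells marked by Cd3e, which should lack globin, the counts were 1 of 421 (0.238%, median 7074 UMIs) and 1 of 238 (0.420%, median 3322 UMIs). The rule itself fixes that every embryonic-globin barcode had such a UMI. The TSK barcodes of 1 library did hold 787 globin UMIs, nearly all adult-type, and in another ratio: Hbb-bs had 420 UMIs and Hbb-bt 108, that is 0.257 UMIs of Hbb-bt per UMI of Hbb-bs (0.206 to 0.318), where the embryonic-globin barcodes had 2.50 in WT (1.87 to 3.38) and 2.34 in TSK (1.71 to 3.25). The 1 such TSK barcode with the most globin held 39.0% of its UMIs in globin genes. Because Hbb-bs and Hbb-bt are near-identical, the 2 ratios depend on how UMIs were divided between them.

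Shared barcodes that missed the rule, with some embryonic globin and copies within 2-fold of each other, numbered 23 in WT and 22 in TSK. They held 399 embryonic globin UMIs in all, up to 1.95% of the UMIs of a barcode in WT and 1.94% in TSK. Of their 268 and 204 globin UMIs, 86.6% were embryonic in WT (81.9 to 90.4) and 81.9% in TSK (75.9 to 86.9), and these intervals overlapped those of the embryonic-globin barcodes. Hbb-y stood at 54.1% and 57.8%. Hba-x was at 28.0% in WT (22.7 to 33.8), but at 20.1% in TSK (14.8 to 26.3), below the 27.7% (26.5 to 28.9) of the TSK embryonic-globin barcodes with no overlap of the intervals.

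**Figure D3:**
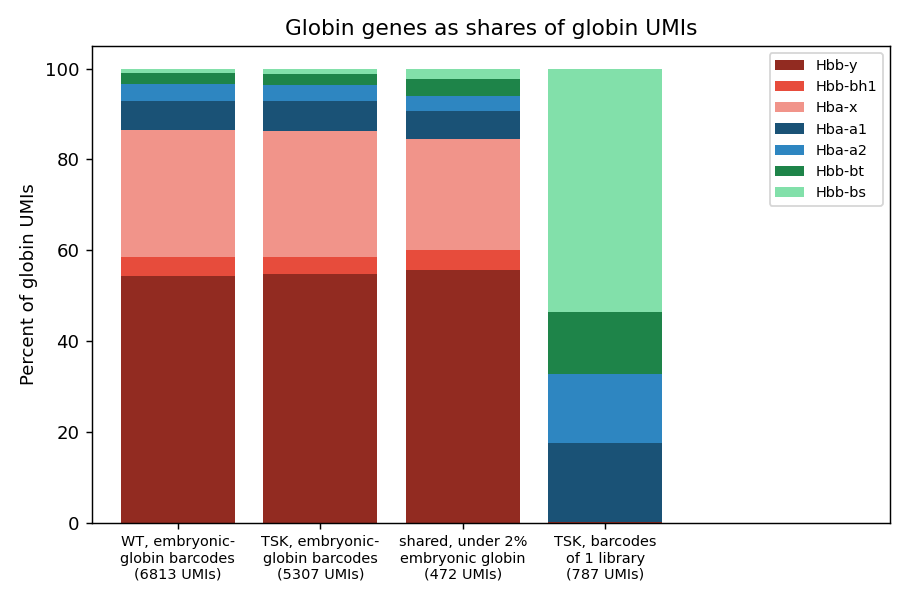
Percent of globin UMIs (y axis) held by each globin gene, stacked to 100, in the embryonic-globin barcodes of each library, in shared barcodes with under 2% embryonic globin (both libraries summed, copies within 2-fold) and in TSK barcodes of 1 library. Reds are embryonic and blues and greens adult-type genes. The first 3 bars are mostly red, with Hbb-y at 54.4% and 54.7% in the first pair, and the last is almost all adult-type.

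Genes outside the globin loci were compared as UMIs per 1000000 UMIs outside the globin genes, written here as CPM, with both libraries summed, against 2 sets of barcodes. The first were the 4397 barcodes of 1 library with under 2% embryonic globin. The second, chosen after the values were seen, were shared barcodes with copies within 2-fold, no embryonic globin UMI in either copy and no more Malat1 than the highest embryonic-globin barcode (1.35% of UMIs). There were 163 copies of these globin-free shared barcodes, with 131528 UMIs and 1 adult-type globin UMI. Both copies of a shared barcode entered these sums where both met the terms of a set, and they are not independent. The intervals treat all UMIs as independent and may thus be too narrow. A gene was compared where it had at least 50 UMIs in both sets together, and was called higher or lower at a 4-fold difference, and in a stricter call where the whole 95% interval of the ratio lay past 4-fold.

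Against the barcodes of 1 library, 971 of 15115 genes were 4-fold higher (6.42% of the genes compared) and 1398 were 4-fold lower (9.25%). The stricter call left 215 higher (1.42%) and 198 lower (1.31%). Against the globin-free shared barcodes, no gene of the 833 compared was 4-fold different, and the interval lay above equality for 39 genes (4.68%) and below it for 43 (5.16%). Across genes, the log2 levels (20 CPM added) of the embryonic-globin barcodes went with those of the globin-free shared barcodes with r = 0.972 over 833 genes, and over the same 833 genes with those of the barcodes of 1 library with r = 0.750. Genes are not independent replicates, and the globin-free shared barcodes come from the same libraries, with a median of 794.5 UMIs in WT and 680 in TSK. The likeness depended on the Malat1 limit. Against all 218 copies of shared barcodes without embryonic globin and with copies within 2-fold, whatever their Malat1, 136 of 1089 genes were 4-fold lower (12.5%), 104 by the stricter call (9.55%), and 1 was 4-fold higher (0.0918%), with r = 0.642 over the 1089 genes and 0.932 over the 833.

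Among 96 measured genes of 7 erythroid lists (heme synthesis, iron handling, red cell membrane, transcription factors, erythropoietin and stem cell factor signaling, red cell enzymes, and organelle clearance), 69 had a UMI in the embryonic-globin barcodes. Of 78 compared with the barcodes of 1 library, 14 were 4-fold higher and 12 were 4-fold lower. That is 17.9% higher, against 6.42% over all genes, and 15.4% lower, against 9.25%. By the stricter call 7 were higher (8.97%, against 1.42% over all genes) and 3 lower (3.85%, against 1.31%). The median log2 ratio of the lists was 0.07, and that of all genes 0.52. Genes with 0 UMIs enter these medians at 3 UMIs, which raises their ratios. The mast cell markers, none with a UMI in these barcodes, had a median of 1.99 in this way. The medians therefore do not show whether erythroid genes were lower than others. Against the globin-free shared barcodes only 8 of the list genes had enough UMIs, none was 4-fold different, and the interval lay above equality for 2 of them, Gpx1 and Fth1, that is 25% of 8 against 4.68% over all genes.

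Several further genes of red cell precursors were at or near the limit of detection. Klf1, the activator of adult β-globin, had 0 UMIs in WT and 1 in TSK. Tfrc, the transferrin receptor, had 2 and 1, Alas2, the first enzyme of erythroid heme synthesis, 3 and 1, Slc4a1, the band 3 anion exchanger, 2 and 1, and Fech, which inserts iron into heme, 1 and 1. Slc2a1, a glucose transporter of red cells among others, had none in either library. These values are 3 UMIs or fewer in each library, so they give no order.

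Car2, a carbonic anhydrase abundant in red cells, had 9 and 3 UMIs, 3.43 higher on the log2 scale than in the barcodes of 1 library, and none in the globin-free shared barcodes. Blvrb, biliverdin reductase B, had 19 and 13 UMIs, or 179 CPM against 30.4 in the globin-free shared barcodes (log2 ratio 2.56, 1.06 to 4.52). Both had fewer than 50 UMIs in the comparison with the globin-free shared barcodes, and both genes were named after their values were seen.

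Other list genes were higher than in the barcodes of 1 library, but where the counts allowed a comparison most had intervals that included equality with the globin-free shared barcodes. Prdx2, a peroxiredoxin abundant in red cells, had 200 and 170 UMIs, or 2070 CPM against 277 in the barcodes of 1 library (log2 ratio 2.90, 2.75 to 3.05), and 1946 in the globin-free shared barcodes (0.09, -0.14 to 0.32). The heme synthesis genes Urod (11 and 8 UMIs, log2 ratio 2.90) and Alad (9 and 11, 2.64) were also 4-fold higher than in the barcodes of 1 library. Ube2c, a ubiquitin-conjugating enzyme of mitosis, had 63 and 71 UMIs (log2 ratio 2.61), and Bcl11a, a repressor of embryonic globin genes, 3 and 8 (5.13). On the lower side, Runx1, a transcription factor of blood cell formation, had 1 and 2 UMIs (log2 ratio -4.19), with Slc2a1 and Jak2 also lower by the stricter call.

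Gpx1 and Fth1 were the list genes that stood above the globin-free shared barcodes. Gpx1, a glutathione peroxidase, had 86 UMIs in WT and 70 in TSK, or 873 CPM against 327 in the globin-free shared barcodes (log2 ratio 1.42, 0.92 to 1.94) and 283 in the barcodes of 1 library (1.62). Fth1, the ferritin heavy chain, had 266 and 234 UMIs, or 2798 CPM against 1597 (0.81, 0.57 to 1.05), yet the barcodes of 1 library had 3304 (-0.24). Ftl1, the ferritin light chain, had 3536 CPM against 3186 in the globin-free shared barcodes.

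The 15 genes with the largest ratio over the barcodes of 1 library included several that are known from the embryo. Barx1, a homeobox gene of the branchial arches and stomach mesenchyme, had 45 UMIs in WT and 27 in TSK, or 403 CPM against 0.0957 (log2 ratio 12.04, 10.85 to 13.53). Mdk, the growth factor midkine of embryonic tissues, had 243 and 205 UMIs, in 88.2% and 86.4% of the barcodes, or 2507 CPM against 5.31 (log2 ratio 8.88). Nnat, neuronatin, an imprinted gene, had 132 and 105 (8.31), Crabp1, a retinoic acid binding protein, 64 and 54 (7.02), its relative Crabp2 60 and 46 (7.01), and Cdkn1c, an imprinted inhibitor of the cell cycle, 92 and 75 (6.30). The rest of the 15 highest were Gm1673, Ldhb, Mfap2, H1fx, Stmn1, H2afv, Gpc3, Ptn and Ppdpf, at log2 ratios from 3.55 to 6.51. In the globin-free shared barcodes all 15 were at a like level, with log2 ratios from -0.24 to 0.44 and intervals that included 0, Mdk at 0.03 (-0.18 to 0.24) and Barx1 at -0.16 (-0.67 to 0.37). Further homeobox genes of the face and limb, named after their values were seen, were Msx1 (13 and 16 UMIs, log2 ratio 6.64 over the barcodes of 1 library), Dlx5 (15 and 11, 9.46) and Pitx1 (11 and 8, 7.57).

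A list of 18 embryonic tissue genes was compared in the same way. Of 16 compared with the barcodes of 1 library, 12 were 4-fold higher (75%, against 6.42% over all genes) and 0 lower (against 9.25%), and 9 were higher by the stricter call (56.2%, against 1.42%), among them Igf2, a fetal growth factor (22 and 14 UMIs, log2 ratio 7.1), and Sox11, a transcription factor of neural progenitors (24 and 19, 6.13). The median log2 ratio was 3.10. Against the globin-free shared barcodes 13 could be compared, with a median of 0.10, and none had an interval off equality. Without the Malat1 limit 16 could be compared, of which 3 were 4-fold lower, also by the stricter call, namely Stmn2 (log2 ratio -6.05), Tubb3 (-3.90) and Meg3 (-3.74). With the limit, Stmn2, a neuronal gene, had 2 UMIs, or 11.2 CPM against 281 in the globin-free shared barcodes (log2 ratio -4.65), and Tubb3, a neuronal tubulin, had 7, or 39.2 against 259 (-2.72), both below the minimum of 50 UMIs, while Meg3 was at -0.07 (-0.83 to 0.71). Genes of the yolk sac and fetal liver were at or near 0, with no UMI of Afp, Alb or Ttr. Of the cell cycle genes, all 16 had a UMI, and Birc5 (30 and 34 UMIs, log2 ratio 2.51) and Tyms (27 and 24, 2.16) were 4-fold above the barcodes of 1 library, 2 of 16 or 12.5% against 6.42% over all genes. By the stricter call Birc5 alone passed.

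**Figure D4:**
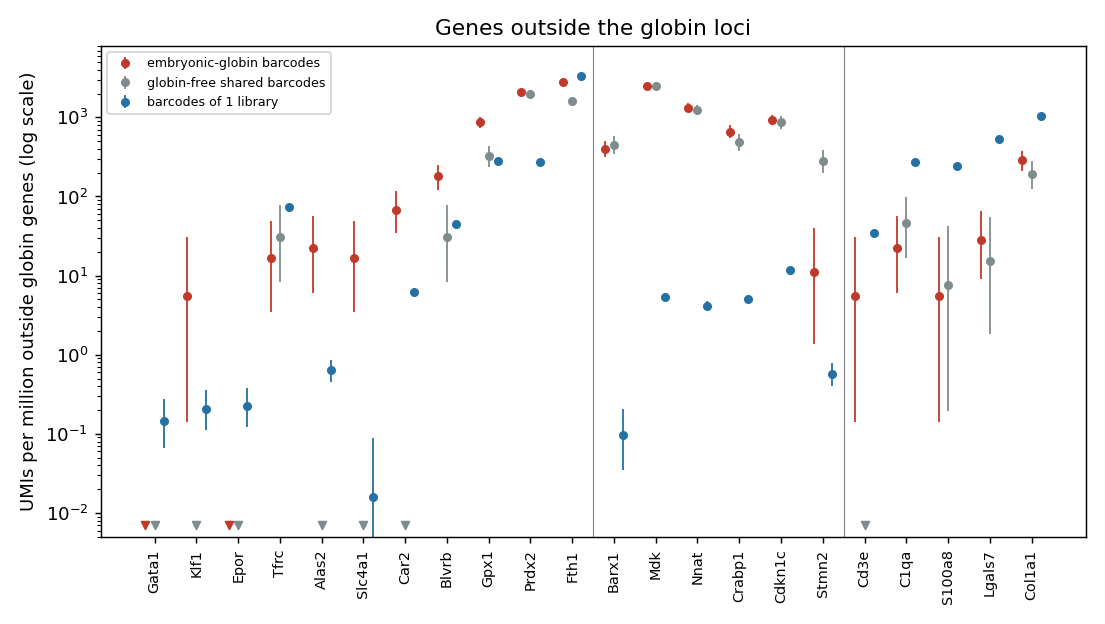
UMIs per 1000000 outside the globin genes (y axis, log scale) for erythroid genes (left), genes known from the embryo (middle) and tumor cell type markers (right), with points for the level in both libraries summed, bars for exact 95% Poisson intervals and triangles at the foot for a count of 0. The genes in the middle have a like level in the embryonic-globin and the globin-free shared barcodes, except Stmn2, and are far lower in the barcodes of 1 library.

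Of the 39 genes with an interval above equality against the globin-free shared barcodes, named here after their values were seen, Mt1, a metallothionein, was highest with 37 and 40 UMIs, or 431 CPM against 114 (log2 ratio 1.92, 1.11 to 2.82). Pcbp2, an RNA-binding protein (1.66), Dctn3, a dynactin subunit (1.43), and Gpx1 followed, and Glrx5, a glutaredoxin needed for iron-sulfur clusters, was at 0.98 (0.20 to 1.83). The 10 lowest included 5 mitochondrially encoded genes, with mt-Cytb at -1.30 (-1.62 to -0.99), mt-Nd2 at -1.30 and mt-Co2 at -1.17, with mt-Nd1 and mt-Co3 among the rest. In sum, mitochondrial genes held 0.675% of the UMIs outside globin (0.637 to 0.714) against 1.21% (1.16 to 1.27) in the globin-free shared barcodes.

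The summed level of each list of markers of the tumor's own cell types was below that in the barcodes of 1 library, in both libraries. T and NK cell markers had 2 UMIs in WT and 0 in TSK over 7 genes, with 1 UMI of Cd3e, and neutrophil markers 3 and 2 over 5 genes. The 4 cancer cell markers had 4 and 8 UMIs, that is 41.1 and 98.2 CPM against 635 and 1350 in the barcodes of 1 library. The 7 macrophage markers had 13 and 7 UMIs, or 134 and 85.9 CPM against 1835 and 843. Fibroblast markers were the highest, with 98 and 52 UMIs over 7 genes, or 1008 and 638 CPM against 8087 and 2739, of which Col1a1 gave 37 and 14. Endothelial markers had 3 and 0 UMIs, B cell markers 0 and 1, megakaryocyte and platelet markers 2 and 1, and the 5 mast cell markers none. The part of those cells' RNA in the globin results was not tested.

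The make-up of the RNA also differed from the barcodes of 1 library. Malat1, an RNA kept in the nucleus, held a median of 0.106% of the UMIs in WT and 0.115% in TSK, against 0.955% and 0.792%, and Neat1, another such RNA, had 1 UMI in each library. Ribosomal protein genes held a median of 33.9% and 34.4% of the UMIs outside globin, against 7.77% and 15.4% in the barcodes of 1 library and 31.6% and 31.4% in the globin-free shared barcodes.

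Sex-linked genes were looked at because the mice were labelled as female. Transcripts of 4 Y-linked genes gave 5 UMIs in WT and 5 in TSK, or 52.4 per 1000000 of all UMIs (25.1 to 96.4), against 15 UMIs, or 0.239 per 1000000 (0.134 to 0.394), in the barcodes of 1 library. A Y-linked UMI was seen in 4 of 93 barcodes in WT (4.30%) and 5 of 88 in TSK (5.68%), compared with 8 of 1436 (0.557%) and 7 of 2961 (0.236%) of the far deeper barcodes of 1 library. Xist, the RNA of the inactive X chromosome, gave 14 and 16 UMIs, or 157 per 1000000 (106 to 224) against 646. Counted once, 9 of the 96 barcodes had a Y-linked UMI in a copy (9.38%, 4.38 to 17.1), 27 had Xist (28.1%, 19.4 to 38.2) and 0 had both. Of 110 shared barcodes without embryonic globin, 15 had a Y-linked UMI, 27 had Xist and 2 had both. At this depth most barcodes showed neither.

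Within the embryonic-globin barcodes, the globins varied together. Scaled to the UMIs outside globin, Hbb-y went with Hba-x at rho = 0.854 over the 93 WT barcodes and 0.811 over the 88 in TSK, with Hba-a1 at 0.766 and 0.720 and with Hba-a2 at 0.647 and 0.700. The relation with Hbb-bh1 was 0.598 and 0.456, and with the sparse Hbb-bt 0.307 and 0.462 and Hbb-bs 0.269 and 0.393. These values share the barcodes' depth and library, and the WT and TSK values share most of their barcodes.

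The number of embryonic globin UMIs showed little relation to depth among the barcodes chosen. The rule sets a lower limit on this number that rises with depth, and so shapes both relations given here. A barcode held from 22 to 167 of them in WT (median 52) and from 17 to 142 in TSK (median 44), and the count had a rho of 0.144 in WT and 0.0578 in TSK with the UMIs outside globin. The globin share was accordingly lower in the deeper barcodes, with a rho of -0.486 and -0.481 with total UMIs and of -0.596 and -0.580 with the number of genes.

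**Figure D5:**
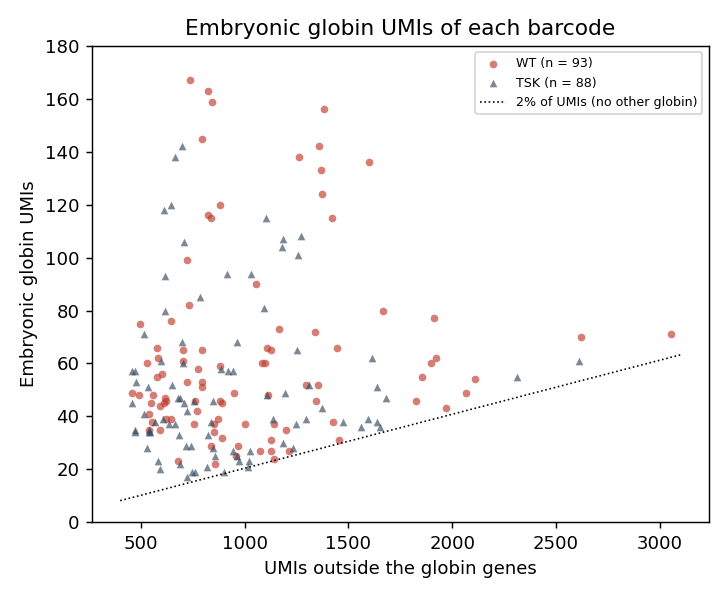
Embryonic globin UMIs (y axis) against UMIs outside the globin genes (x axis) in each embryonic-globin barcode, with circles for WT (n = 93) and triangles for TSK (n = 88) and a dotted line at the limit of 2%. Counts over 100 occur from the shallow barcodes up to the middle of the depth range, and the deepest barcodes lie close to the line.

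Split by total globin share into 3 groups of near-equal size, the median depth was 1247, 857 and 837 UMIs from the lowest to the highest group in WT, and 1176, 767 and 765.5 in TSK. Fth1 was at 2201, 2248 and 4183 CPM in WT and at 2290, 2853 and 3829 in TSK, and Ftl1 at 2905, 3444 and 4652 and at 3044, 3875 and 4054. The 7 erythroid lists together were at 11098, 11854 and 15246 and at 10921, 13287 and 14686, but without Fth1 and Ftl1 at 5991, 6163 and 6411 and at 5586, 6558 and 6802. Prdx2 had no such order, at 2065, 2211 and 1876 and at 2011, 2342 and 1937, and Glrx5 was highest in the lowest group, at 431, 326 and 156 and at 335, 128 and 180. Gpx1 was lowest in the lowest group, at 590, 1196 and 1056 in WT and at 587, 852 and 1306 in TSK. Malat1 took the opposite course, with 3404, 1668 and 1486 CPM in WT and 4022, 1789 and 1126 in TSK. The groups differed in depth, so 500 UMIs outside globin were drawn from each barcode. This left out 3 of the highest group in WT, and 1 of the middle and 5 of the highest group in TSK. The share of barcodes with an Fth1 UMI was then 71.0%, 67.7% and 75% in WT and 79.3%, 71.4% and 72% in TSK, with no order. For Gpx1 it was 22.6%, 29.0% and 28.6% in WT and 31.0%, 32.1% and 44% in TSK. For Malat1 it was 58.1%, 41.9% and 46.4% in WT and 65.5%, 57.1% and 36% in TSK. Such a share is a coarse measure of level and does not settle the CPM order. The CPM intervals of Fth1 in the lowest and highest groups did not overlap. They were 1785 to 2685 and 3428 to 5055 in WT, and 1822 to 2843 and 3059 to 4735 in TSK. The embryonic tissue genes showed no order, at 9327, 9534 and 9109 in WT and 7373, 10263 and 9055 in TSK. Of 566 genes outside globin, the highest rho with globin share was 0.307 (Fth1) and the lowest -0.338 (Top1, a topoisomerase), which are weak in counts this sparse.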

How the data were processed

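The authors counted UMIs per gene and barcode with Cell Ranger 7.1.1 against mm10, per the labels, while the header of the deposited matrices names version 7.1.0. The deposited values were raw counts for 32285 genes, 1 library per genotype, with 10 globin genes. They were read with Python 3.11.15, numpy 2.4.6, scipy 1.17.1 and pandas 2.3.3 (figures with matplotlib 3.10.9). No doublet caller was run, because the rule alone chose the barcodes. Shares have exact binomial, levels exact Poisson and ratios exact conditional 95% intervals, counting error only. Where both libraries are summed, they treat the 2 copies of a shared barcode as independent. A count of 0 was set to 3 UMIs per group in a ratio. Cells are not replicates, so no p-value was computed. The embryonic-globin barcodes and the gene lists were chosen with earlier results of these data known. Genes named were those of the lists, the 15 with the largest ratio over barcodes of 1 library (at least 50 UMIs, in at least 20% of the barcodes), the 8 highest and lowest correlates of the globin share, and those said to be named after their values were seen. In a test on simulated data for the comparison with barcodes of 1 library (15122 genes, 200 changed 8-fold), the stricter call recovered 92.9% of the higher and 7.84% of the lower genes. Of the gene identifiers, 99.8% were in GENCODE M21. Some list genes count in the totals but are not reported here by name.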

Additional observations from a re-analysis of the deposited data

How the results depend on the processing

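With a limit of 5% embryonic globin in place of 2%, 54 barcodes remained in WT and 47 in TSK, with median shares of 7.72% and 7.37%, and 5 erythroid list genes in place of 12 were 4-fold lower than in the barcodes of 1 library. When only the deeper copy of each shared barcode was kept, 6 barcodes were left in TSK, with 89.2% of globin UMIs embryonic, a median share of 2.38% and 19.6 Hbb-y UMIs per Hbb-bh1 UMI. The median of the barcodes' own Hbb-y per Hbb-bh1 ratios was 8.30, over the 5 WT barcodes with at least 10 UMIs of both genes, and no TSK barcode had as many. A 2-fold limit called 24 erythroid list genes higher and 21 lower, and the whole interval past 4-fold, chosen after the data were seen, 7 and 3. No share over all genes is given for the 2-fold limit or for the 5% limit. Against all shared barcodes below the 2% limit, 6 of 47 were 4-fold higher (12.8%, against 2.38% over all genes). In the same comparison 13 were 4-fold lower (27.7%, against 18.4% over all genes). Against shared barcodes without embryonic globin, chosen after the data were seen, 0 erythroid list genes were higher, 0 were lower and 0 embryonic tissue genes were higher, with or without the Malat1 limit, and fewer genes had enough UMIs there. Without that limit 3 embryonic tissue genes were lower and 136 of 1089 genes were lower, against 0 of 833 with it. The other 80 values stayed within their limits of change, and none reversed. Planned groups at 20% and 50% globin held 1 barcode and none, so groups of near-equal size were used. No paired analysis was possible because each group had 1 library and no result came from a test.

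The depth of 967 and 868 UMIs per barcode limits what absence can show: a count of 0 UMIs allows a level of up to 16.8 per 1000000 UMIs outside globin, and few of the simulated lower genes were recovered.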

Other observations

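The 35 shared barcodes whose copies differed by more than 2-fold had no embryonic globin UMI in either copy, and their median TSK-to-WT ratio of UMIs was 0.00727. In the 138 shared barcodes with under 2% embryonic globin and copies within 2-fold, the median ratio was 0.828, beside 0.843 in the embryonic-globin barcodes. The 39 Hox genes with symbols in the files had 2 UMIs in all in the embryonic-globin barcodes, whereas the homeobox gene Barx1 alone had 72.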
